A study of Mus musculus with 112 samples.

Results

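Collagens are the main structural proteins of the extracellular matrix, and the genes described here are those whose symbol has the form Col, a number, a, a number, such as Col1a1. This rule took 88 of the 45281 probes on the array and 40 of 28888 genes, which were divided by the kind of assembly their chains form: 11 fibrillar genes, 6 genes of the basement membrane network and 23 others. Of the 40 genes, 34 were detected on at least 1 of 112 arrays by the probe that stood for the gene, and 4 were detected by none of their probes on any array. Collagen genes that the file lists under another form of name were not taken as members.

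A collagen chain carries long repeats in which glycine recurs at a fixed spacing, and 3 chains wind around each other into a rod. Fibrillar collagens are secreted as procollagens, trimmed at both ends by proteases and packed into cross-linked fibres, which fibroblasts make in large amounts. Type IV chains keep their ends and join into the sheet that underlies epithelia and surrounds the epiblast, the embryonic epithelium from which the body forms. The remaining types decorate fibrils, form beaded filaments or anchoring fibrils, or sit in the cell membrane.

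RNA was measured on Illumina bead arrays. Epiblast stem cells (EpiSC) are pluripotent lines grown from the post-implantation epiblast. From the R1-129 strain came 18 EpiSC lines, measured on 65 arrays at passages 10 to 19 and derived from embryos at the cavity (4 lines, E5.5 to E6), prestreak (3, E6 to E6.5), late midstreak (6, E6.75 to E7.5), early bud (2, E7.5 to E8) and late bud (3, E7.75 to E8.25) stages. For 4 of these lines a subline was also grown. EpiSC9 is an EpiSC line of the 129SvJ strain (3 arrays, passage 24), and 1 further array, EpiSC9_T, held RNA of it from another laboratory. The embryonic stem cells (ESC) were R1-129 cells at passage 22 (3 arrays), the induced pluripotent cells (iPSC) were 3 lines reprogrammed from tail-tip fibroblasts of (C57BL6xC3H)F1 mice (9 arrays), and the mouse embryonic fibroblasts (MEF) were of the ARC/s strain (2 arrays). Epiblasts were dissected singly from R1-129 embryos, which gave 17 arrays: 4 of the early period (cavity, prestreak), 6 of the streak period (late midstreak and, at E7 to E7.5, late streak) and 7 of the bud period (1 no-bud embryo of E7.25 to E7.75, 3 early bud and 3 late bud). Epiblast RNA was amplified before labelling, and so was RNA of 12 EpiSC cultures (3 each of CAV2, PS5, LMS3, LB2), whose unamplified RNA is among the 65 arrays. EpiSC were lifted with collagenase from a layer of fibroblasts on which they grow, so their RNA can include RNA of that layer. MEF and ESC are each 1 line or preparation, and the iPSC lines carry a strain background that differs from the EpiSC.

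A probe counted as detected where its detection p against the negative control beads of the same array was under 0.01. Between 33.7% and 41.1% of probes were detected on the EpiSC arrays, between 21.3% and 29% on the epiblast arrays and between 32.7% and 37.3% on the MEF, ESC and iPSC arrays. By the probes that stand for the genes, each EpiSC array detected 18 to 25 collagen genes, the MEF arrays 23 and 24, the ESC arrays 18, the iPSC arrays 17 to 23 and the epiblast arrays 6 to 11. Arrays were clustered by their probes at background level, and the tree was cut into 7 sets, a number chosen here. These sets are not groups of the study. EpiSC were spread over 4 sets, and MEF and EpiSC9 shared 1 of these. ESC and iPSC lay in a set with no other arrays, and 13 epiblasts formed another. The last held the 12 amplified EpiSC arrays with the 3 late streak embryos and the no-bud embryo. Array set and cell type therefore cannot be told apart where EpiSC are compared with ESC or iPSC. As to the labelled cell types, the MEF arrays detected none of Pou5f1, Nanog, L1td1 and Utf1. Sox2, the remaining pluripotent marker, was detected on 1 of the 2 MEF arrays. All 5 pluripotent markers were detected in ESC, iPSC and EpiSC. Postn, a fibroblast gene, was detected on none of the 112 arrays, and 16 of the 17 fibroblast markers were detected on at least 1. Arrays of one group correlated at 0.997 or less over all genes, so none was treated as a repeat of another.

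The start regions of 8 collagen genes are shown for the genes the results turn on, namely the head-to-head type IV pairs, the fibrillar genes Col1a2 and Col3a1 that were high in fibroblasts, and Col5a1 and Col16a1, which were higher in later epiblasts. The windows run from 250 bases before to 50 bases after the start given by RefSeq on GRCm38.p6 and are written 5′ to 3′ on the gene's own strand. Capitals mark 3 motifs on either strand, and no marked copies overlap. The first motif is TATAAA, the core of the TATA box, which reads TTTATA when it lies on the other strand. The second motif is CCAAT, named the CCAAT box, which then reads ATTGG there. The third motif is GGGCGG, named the GC box, which reads CCGCCC. Col4a1 lies at chr8:11312777-11313076 on the minus strand and Col4a2 at chr8:11312555-11312854 on the plus strand, and 78 bases belong to both windows. Col4a5 lies at chrX:141475169-141475468 (plus), Col4a6 at chrX:141474027-141474326 (minus), Col1a2 at chr6:4505368-4505667 (plus), Col3a1 at chr1:45311288-45311587 (plus), Col5a1 at chr2:27886175-27886474 (plus) and Col16a1 at chr4:130047590-130047889 (plus).
Col4a1: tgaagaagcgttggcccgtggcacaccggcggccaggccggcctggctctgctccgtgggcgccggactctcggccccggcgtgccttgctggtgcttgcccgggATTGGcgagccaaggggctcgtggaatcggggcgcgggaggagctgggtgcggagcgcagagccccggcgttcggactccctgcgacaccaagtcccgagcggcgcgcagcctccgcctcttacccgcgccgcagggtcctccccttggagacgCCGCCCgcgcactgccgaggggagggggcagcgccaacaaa
Col4a2: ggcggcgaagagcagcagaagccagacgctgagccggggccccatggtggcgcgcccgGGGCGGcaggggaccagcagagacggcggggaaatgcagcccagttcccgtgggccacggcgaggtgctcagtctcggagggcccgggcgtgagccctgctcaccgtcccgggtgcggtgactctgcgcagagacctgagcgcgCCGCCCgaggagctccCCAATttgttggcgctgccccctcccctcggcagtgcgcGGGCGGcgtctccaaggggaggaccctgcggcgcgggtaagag
Col4a5: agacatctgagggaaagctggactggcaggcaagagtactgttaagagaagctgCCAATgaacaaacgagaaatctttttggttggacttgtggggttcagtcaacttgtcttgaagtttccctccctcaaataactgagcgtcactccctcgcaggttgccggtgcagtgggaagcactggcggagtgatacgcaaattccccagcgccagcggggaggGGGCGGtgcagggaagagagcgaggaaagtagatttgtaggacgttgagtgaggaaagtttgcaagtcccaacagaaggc
Col4a6: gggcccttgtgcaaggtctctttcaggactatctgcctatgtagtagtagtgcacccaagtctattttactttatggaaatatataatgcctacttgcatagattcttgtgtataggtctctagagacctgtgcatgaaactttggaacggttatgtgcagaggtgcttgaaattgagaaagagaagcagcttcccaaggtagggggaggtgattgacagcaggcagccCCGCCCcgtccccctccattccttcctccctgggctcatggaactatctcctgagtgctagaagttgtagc
Col1a2: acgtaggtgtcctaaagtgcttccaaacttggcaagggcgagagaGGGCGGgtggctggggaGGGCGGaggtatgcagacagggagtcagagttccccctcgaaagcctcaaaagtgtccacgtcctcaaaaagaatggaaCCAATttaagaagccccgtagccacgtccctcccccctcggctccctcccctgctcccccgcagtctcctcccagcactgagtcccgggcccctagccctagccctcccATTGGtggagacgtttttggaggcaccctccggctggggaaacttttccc
Col3a1: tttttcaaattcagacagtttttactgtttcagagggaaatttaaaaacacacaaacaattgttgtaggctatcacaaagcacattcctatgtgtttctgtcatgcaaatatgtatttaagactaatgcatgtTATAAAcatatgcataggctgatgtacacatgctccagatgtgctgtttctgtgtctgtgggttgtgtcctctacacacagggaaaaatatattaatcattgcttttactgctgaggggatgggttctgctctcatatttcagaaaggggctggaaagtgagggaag
Col5a1: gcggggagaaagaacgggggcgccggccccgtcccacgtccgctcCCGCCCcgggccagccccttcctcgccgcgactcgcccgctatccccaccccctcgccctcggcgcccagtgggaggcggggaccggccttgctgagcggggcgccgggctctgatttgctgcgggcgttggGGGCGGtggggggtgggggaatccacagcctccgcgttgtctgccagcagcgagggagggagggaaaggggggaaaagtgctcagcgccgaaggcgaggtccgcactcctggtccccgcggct
Col16a1: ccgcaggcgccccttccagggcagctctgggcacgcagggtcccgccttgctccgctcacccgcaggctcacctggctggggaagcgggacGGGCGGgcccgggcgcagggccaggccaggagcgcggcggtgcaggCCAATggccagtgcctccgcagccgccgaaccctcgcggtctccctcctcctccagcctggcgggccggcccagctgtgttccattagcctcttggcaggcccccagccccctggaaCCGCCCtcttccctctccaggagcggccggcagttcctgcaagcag

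Of the 40 genes, 32 had a RefSeq window, 35 windows in all; Col1a1, Col2a1, Col22a1, Col4a3, Col5a2, Col12a1, Col14a1 and Col9a3 had none. A GC box stood in 20 of the 35 collagen windows (57.1%) and in 35.7% of all 32851 windows of the same length. The TATA box stood in 5 collagen windows (14.3%, against 13.6% of all) and the CCAAT box in 12 (34.3%, against 37.4%). Among the windows shown, the TATA box occurred in that of Col3a1, at position -117, and the only marked copy in that of Col4a6 was a GC box at -21. The median GC content was 59.7% over the collagen windows and 52.7% over all. These are matches of letters in a short window and do not show that a factor binds.

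Type I and type III collagen transcripts were far more abundant in fibroblasts than in any pluripotent culture. Levels are given as normalized intensities on a log2 scale. Col1a1, a chain of type I collagen of skin, tendon and bone, stood at 12.52 and 12.69 in MEF, whereas the 18 EpiSC lines ranged from 7.68 to 10.64 with a median of 8.71. The ESC arrays gave 9.35, 9.26 and 9.13, and the iPSC arrays ranged from 7.56 to 9.72 with a median of 9.04. Both MEF arrays lay above every pluripotent culture, while EpiSC, ESC and iPSC overlapped. Col1a2, the partner chain, stood at 8.93 and 8.97 in MEF and between 4.87 and 6.47 in EpiSC lines (median 5.38), where 45 of 65 arrays detected it. Col3a1, which is laid down with type I in vessels and soft tissue, stood at 10.59 and 10.49 in MEF, between 5.45 and 9.11 in EpiSC (median 7.16), at 5.58, 5.85 and 5.56 in ESC and between 5.32 and 7.90 in iPSC (median 6.92). In all 3 genes the MEF arrays and the EpiSC lines did not overlap.

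In the comparison of EpiSC with MEF, 23 of the 31 collagen genes tested passed an adjusted p of 0.05, 20 of them lower and 3 higher in EpiSC. Of all 15580 genes tested, 42.6% passed, 21% lower and 21.6% higher, so the share of collagen genes lower in EpiSC exceeded the background share of lower genes. The median difference was -1.28 over the collagen genes and 0.10 over all genes, on the log2 scale. Differences below are given as log2 values ± standard error, with p from limma's moderated test after Benjamini-Hochberg adjustment over all genes. MEF are 1 preparation, so their spread was assumed to be that of the other lines, and the p-values measure only the spread between these samples.

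Among the fibrillar genes, 7 of 10 tested were lower and 1 was higher in EpiSC. Col1a1 was lower by 12.5-fold (log2 difference -3.64 ± 0.79, adjusted p = 0.000697), Col1a2 by 10.9-fold (-3.45 ± 0.39, adjusted p = 2.44e-07) and Col3a1 by 10.5-fold (-3.40 ± 0.85, adjusted p = 0.00245). Col5a1, a chain of type V collagen on which type I fibrils are nucleated, was high in every cell type: it stood at 13.71 and 13.73 in MEF and between 10.46 and 11.94 in EpiSC (median 11.01), a 6.08-fold difference (-2.60 ± 0.38, adjusted p = 1e-05). Col24a1 was lower in EpiSC as well (-2.42), where 8 of 65 arrays detected it, and so was Col5a3 (-0.83, 10 of 65 arrays). Col5a2, another type V chain, was lower in EpiSC by both of its probes that were tested. The probe that stands for the gene was detected on 1 of the 2 MEF arrays, at 7.65 and 4.52, and its difference (-1.18 ± 0.26, adjusted p = 0.000712) was lost without that array (0.39, adjusted p = 0.227). A second probe was detected on both MEF arrays, at 6.45 and 6.81, and on 4 of 65 EpiSC arrays (-1.94 ± 0.17, adjusted p = 5.02e-09, with every probe tested on its own). Col11a2 and Col27a1 did not pass by the probes that stand for them. That of Col27a1 was detected on neither MEF array. A second probe of Col27a1 was detected on both MEF arrays (mean 5.95) and on 3 of 65 EpiSC arrays (mean 4.66).

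Col2a1, the type II collagen of cartilage and of the notochord sheath, went the other way. It stood at 6.16 and 6.19 in MEF, at 6.06, 5.86 and 5.84 in ESC, between 5.12 and 7.99 in iPSC (median 6.03) and between 6.85 and 10.50 in EpiSC lines (median 9.59). Every EpiSC line lay above the MEF and ESC arrays, and the lowest EpiSC line lay within the iPSC range. Col2a1 was 8.86-fold higher in EpiSC than in MEF (3.15 ± 0.93, adjusted p = 0.00889). When only the arrays of the MEF array set were used, the difference was 2.85 (adjusted p = 0.0516).

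**Figure D1:**
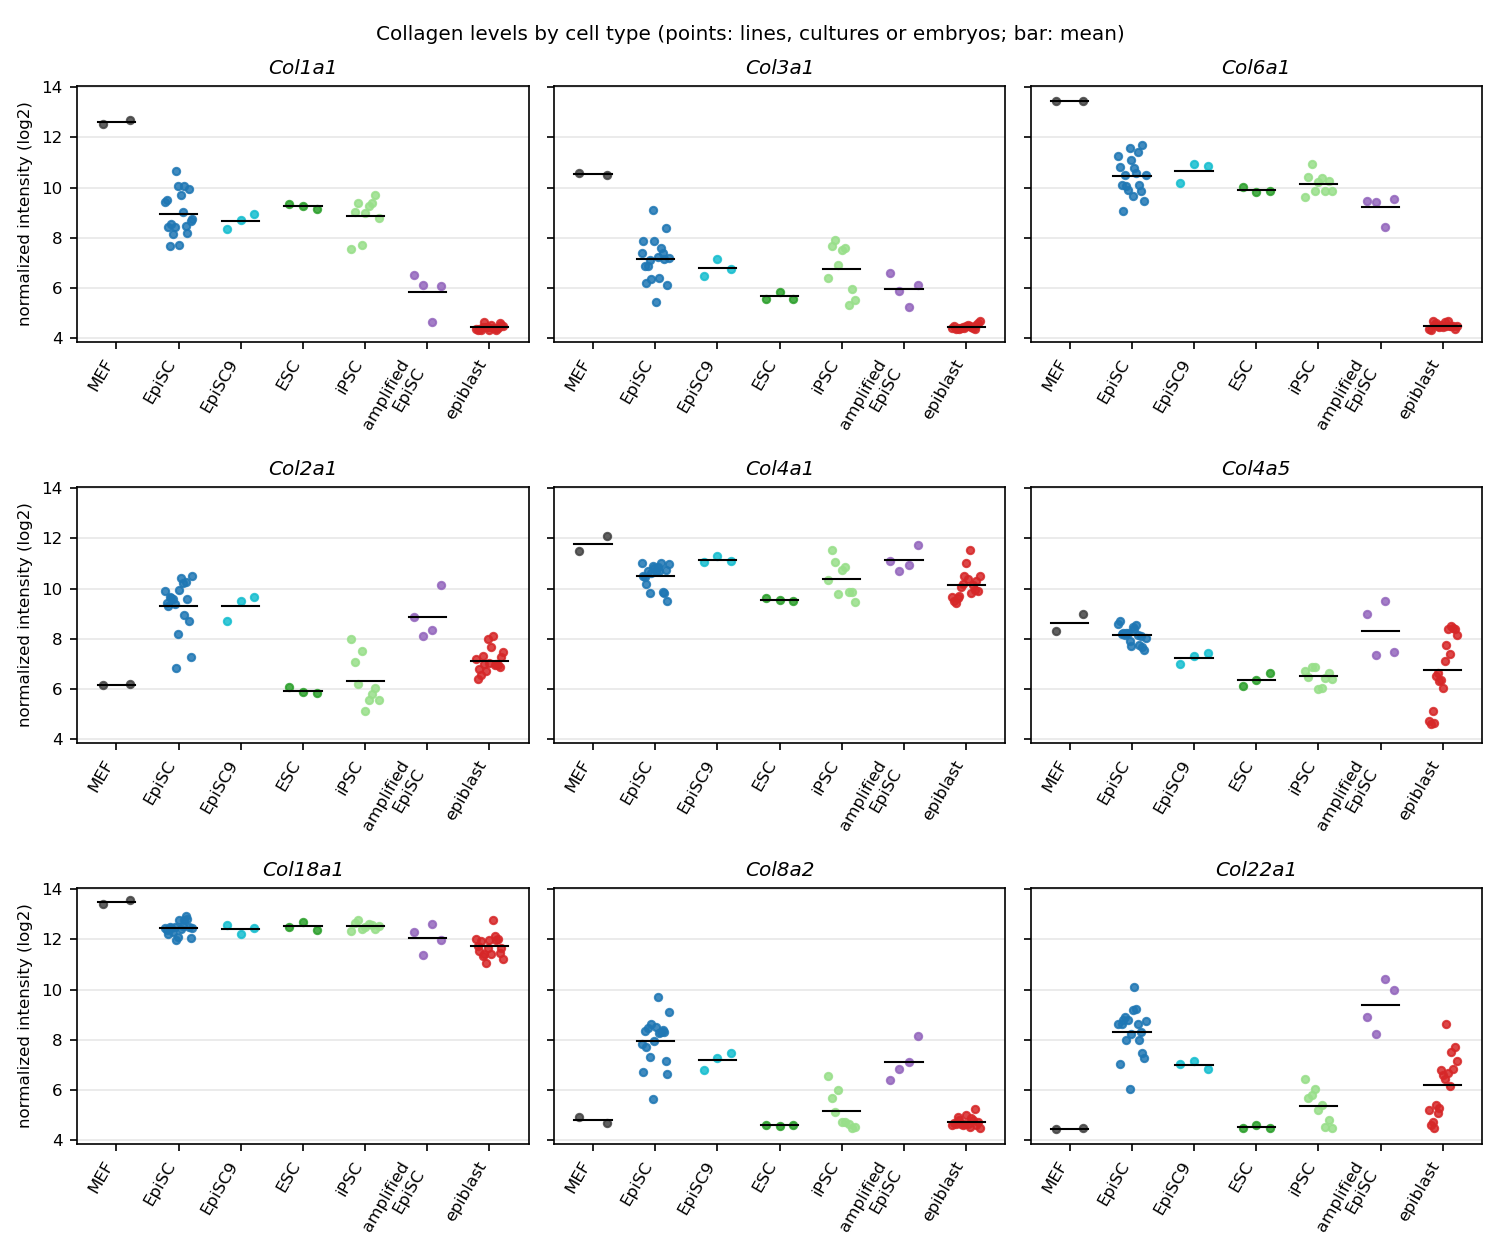
Normalized log2 intensity of 9 collagen genes by cell type. Each point is 1 line (EpiSC, amplified EpiSC), 1 culture (MEF, EpiSC9, ESC, iPSC) or 1 embryo (epiblast), and each bar is the mean; the MEF points lie above the EpiSC points for Col1a1, Col3a1, Col6a1, Col4a1 and Col18a1 and below them for Col2a1, Col8a2 and Col22a1.

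By the probes that stand for the genes, 2 of the 3 basement membrane genes tested were lower in EpiSC than in MEF. None was higher (0), and the median difference was -1.28, as over all collagens. Col4a1 and Col4a2 encode the chains of the common type IV molecule and share a start region. Col4a1 stood at 11.50 and 12.08 in MEF, between 9.51 and 11.03 in EpiSC (median 10.68), at 9.64, 9.55 and 9.50 in ESC and between 9.45 and 11.54 in iPSC (median 10.34). Col4a2 stood at 11.28 and 11.63 in MEF, between 8.88 and 10.46 in EpiSC (median 9.81), at 9.15, 9.15 and 9.23 in ESC and between 8.82 and 10.39 in iPSC (median 9.31). For both genes the MEF arrays lay above all EpiSC lines, and EpiSC and iPSC overlapped.

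Col4a1 was 2.42-fold lower in EpiSC than in MEF (-1.28 ± 0.47, adjusted p = 0.0323) and Col4a2 3.21-fold lower (-1.68 ± 0.46, adjusted p = 0.00527). The call for Col4a1 was lost without the second MEF array (-0.99, adjusted p = 0.0940) and when sublines were left out (-1.23, adjusted p = 0.0579). Col4a5, a chain of the kidney and epithelial type IV networks, stood at 8.30 and 8.98 in MEF and between 7.53 and 8.70 in EpiSC (median 8.16), groups that overlapped, and it did not pass (-0.50 ± 0.33, adjusted p = 0.237). Without the first MEF array it passed (-0.84, adjusted p = 0.0429). Col4a5 also passed when every probe was tested on its own (-0.84, adjusted p = 0.0321). Its second probe, detected on all EpiSC and MEF arrays, had means of 7.27 in EpiSC and 8.14 in MEF. Across the 18 EpiSC lines Col4a1 and Col4a2 varied together (r = 0.95, over lines that share arrays and normalization for both genes). Col4a6, which starts next to Col4a5, was detected on 1 of 112 arrays by any of its probes while Col4a5 was detected on 106, and Col4a3 and Col4a4, the other pair, were detected on none.

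Among the 18 other collagens tested, 11 were lower and 2 higher in EpiSC than in MEF. All 3 genes of type VI, whose chains form beaded filaments around cells, were lower. Col6a1 stood at 13.45 on both MEF arrays and between 9.08 and 11.68 in EpiSC (median 10.51), a 7.89-fold difference (-2.98 ± 0.68, adjusted p = 0.0011). Col6a2 stood at 10.45 and 11.02 in MEF and between 6.27 and 8.86 in EpiSC (median 7.34), a 9.71-fold difference (-3.28 ± 0.71, adjusted p = 0.000712). Neither gene's groups overlapped. Col16a1, a collagen that associates with fibrils, was lower (-2.86 ± 0.61, adjusted p = 0.000587), as were Col12a1 (-2.76) of the same class, Col8a1 (-2.69), a short-chain collagen of sheet-like networks, and Col7a1 (-1.71), the anchoring fibril collagen of skin. Col18a1, a proteoglycan collagen of basement membranes and the source of endostatin, was at a high level everywhere: 13.39 and 13.58 in MEF and between 11.98 and 12.91 in EpiSC (median 12.45), a 2.06-fold difference (-1.04 ± 0.24, adjusted p = 0.00123).

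Col10a1, a collagen of hypertrophic cartilage, was detected in MEF alone among all groups, at 5.82 and 8.10, which puts it at least 3.31-fold above EpiSC. It is among the collagen genes tested against MEF only because the MEF arrays detected it. Its direction was thus fixed in advance. Col8a2 and Col22a1 were the collagens besides Col2a1 that were higher in EpiSC. Col8a2, the partner of Col8a1 in the type VIII network, stood at 4.91 and 4.67 in MEF, where no array detected it, and between 5.65 and 9.68 in EpiSC (median 8.29). Col22a1, a collagen of tissue junctions, stood at 4.44 and 4.46 in MEF, again not detected, and between 6.05 and 10.09 in EpiSC (median 8.61). All 65 EpiSC arrays detected both, and every EpiSC line lay above the MEF arrays. Against background the EpiSC level was at least 5.05-fold higher for Col8a2 (3.15 ± 0.89, adjusted p = 0.00621) and at least 6.59-fold higher for Col22a1 (3.88 ± 0.87, adjusted p = 0.000967). In the values processed by the authors the difference of Col8a2 was 0.25 (adjusted p = 0.0886). The probe that stands for a gene was chosen anew there and can be another one.

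**Figure D2:**
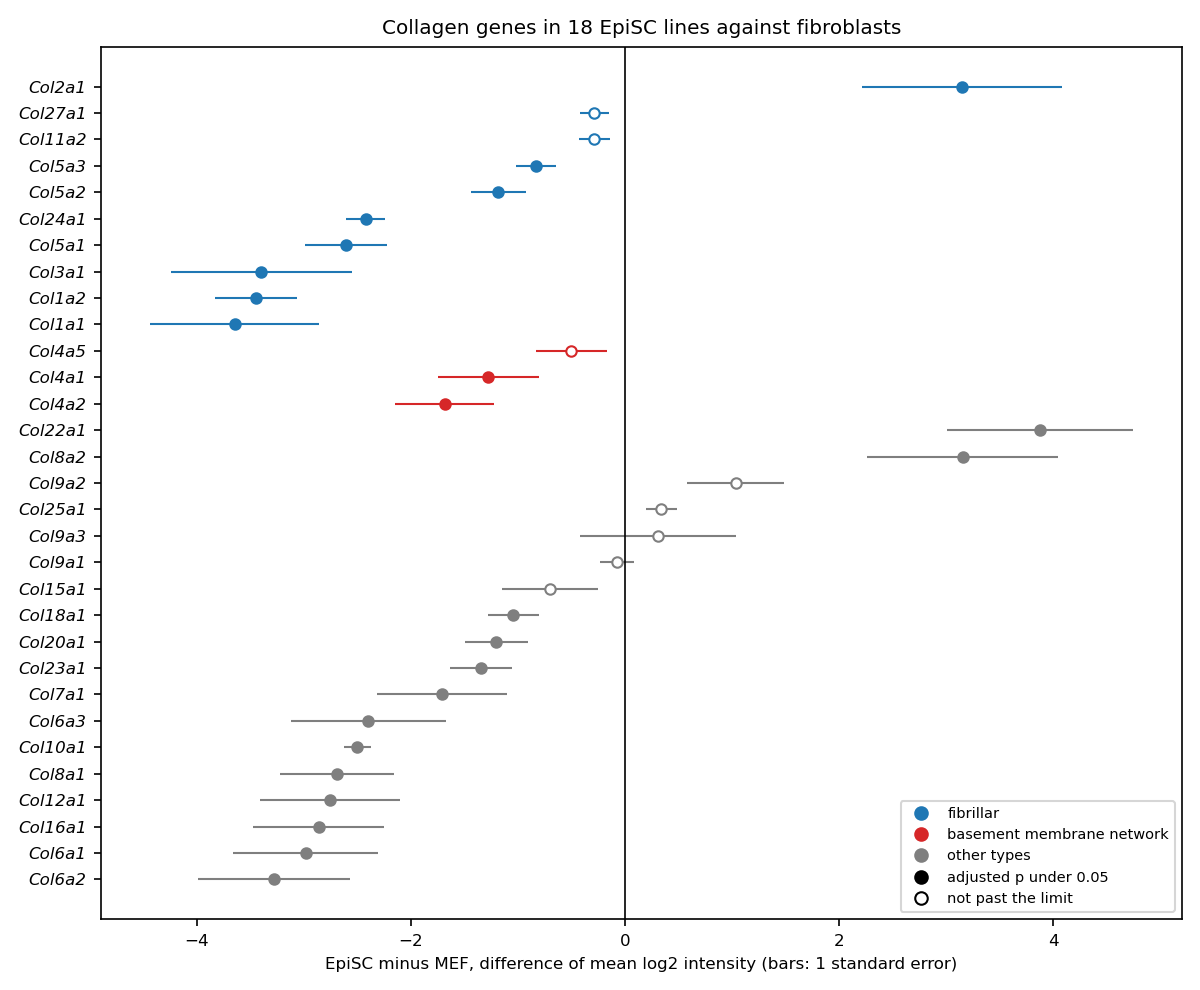
Log2 difference of each tested collagen gene between the 18 EpiSC lines and MEF, by class, with 1 standard error. Filled points passed an adjusted p of 0.05: 20 genes lie to the left of 0 and 3 (Col2a1, Col8a2, Col22a1) to the right.

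Genes that handle collagen outside and inside the cell went mostly the same way. Of 25 tested genes of collagen processing, 21 were lower in EpiSC and 0 higher; these included Adamts2 (-3.99), which removes the N-terminal propeptide of fibrillar procollagens, Pcolce (-3.15), which speeds removal of the C-terminal one, and the cross-linking oxidases Lox (-3.11) and Loxl1 (-3.21). Of 7 collagen-degrading enzymes, 7 were lower, among them the collagenase Mmp13 (-5.67) and the lysosomal protease Ctsk (-3.80). Of 8 collagen receptors, 7 were lower, such as the integrin chain Itga11 (-3.96) and Ddr2 (-2.52), and 1 was higher, the epithelial collagen receptor Ddr1 (2.08). The 11 partners of type IV in basement membranes were divided, with 3 higher (Lama1, at least 3.49-fold, Nid2, 1.77, and Lama5, 1.69), 3 lower (Nid1, -3.20, Sparc, -1.89, and Lamb1, -1.79) and 5 that did not pass.

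The fibroblast markers, a list with no collagen, moved with these genes: 15 of 16 tested were lower in EpiSC and 0 higher. The summed intensity of the 17 markers was 86604 to 88488 on MEF arrays, 9686 to 42856 on EpiSC, 18067 to 19615 on ESC and 11289 to 19079 on iPSC arrays. Of the 5 pluripotent markers, 4 were higher in EpiSC and 0 lower. Endothelial markers gave 0 calls of 6 (0 at an unadjusted p under 0.05), and of 12 endoderm markers 3 were lower and 1 was higher. In RNA of whole cultures, fewer cells of a type and less RNA per cell cannot be told apart.

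Few collagens separated the kinds of pluripotent cell. EpiSC were compared with ESC and with iPSC, and as both comparisons share the EpiSC lines their values are set side by side. By the probes that stand for the genes, 5 of 31 collagen genes were higher in EpiSC than in ESC and 0 lower. The background was 25.5% of all genes, 12.5% higher and 13.0% lower. Against iPSC, 5 were higher and 1 lower; the background was 41.4%, 21.1% higher and 20.3% lower. In both, a smaller share of collagens than of all genes was called. Col17a1, a transmembrane collagen, is not among the 31, as the probe that stands for it was detected on no array. Another of its probes was detected on all 3 ESC arrays (mean 5.52) and 4 of 9 iPSC arrays (mean 5.14). That probe was detected on no EpiSC array (mean 4.52). The counts of lower genes therefore do not cover Col17a1.

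The 5 higher genes were Col2a1, Col8a2, Col22a1, Col4a5 and Col23a1 in each comparison. Col22a1 stood at 4.49, 4.59 and 4.49 in ESC, where it was not detected, and between 4.50 and 6.43 in iPSC (median 5.39, detected on 4 of 9 arrays). Col8a2 stood at 4.60, 4.56 and 4.60 in ESC, also not detected, and between 4.48 and 6.56 in iPSC (median 4.73, 3 of 9 arrays). The 18 EpiSC lines lay above all ESC arrays for both genes, and the lowest line, LMS1, fell within the iPSC range. Col22a1 was at least 7.80-fold higher than in ESC (3.80 ± 0.87, adjusted p = 0.00241) and 7.73-fold higher than in iPSC (2.95 ± 0.53, adjusted p = 0.000101). Col8a2 was at least 5.97-fold higher than in ESC (3.36 ± 0.89, adjusted p = 0.00754) and 6.87-fold higher than in iPSC (2.78 ± 0.54, adjusted p = 0.000254). In the values processed by the authors, where another probe can stand for the gene, the difference of Col8a2 from ESC was 0.23 (adjusted p = 0.175).

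Col2a1 was 10.6-fold higher in EpiSC than in ESC (3.40 ± 0.93, adjusted p = 0.00961) and 8.07-fold higher than in iPSC (3.01 ± 0.57, adjusted p = 0.000183). Col4a5 stood at 6.12, 6.34 and 6.62 in ESC and between 5.99 and 6.88 in iPSC (median 6.49), and no EpiSC line reached down to either group. It was 3.44-fold higher in EpiSC than in ESC (1.78 ± 0.33, adjusted p = 0.000378) and 3.13-fold higher than in iPSC (1.65 ± 0.20, adjusted p = 8.04e-07). Col23a1, a transmembrane collagen, was not detected in ESC and stood at a low level in EpiSC, between 5.39 and 6.35 (median 6.09). It was at least 1.58-fold higher than in ESC (1.44 ± 0.29, adjusted p = 0.000788) and 1.89-fold higher than in iPSC (0.92 ± 0.18, adjusted p = 0.000229). The gene lower in EpiSC than in iPSC was Col20a1 (-0.48 ± 0.18, adjusted p = 0.0337), which 15 of 65 EpiSC arrays and 6 of 9 iPSC arrays detected.

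Col1a1 gave a difference of -0.28 ± 0.79 from ESC (adjusted p = 0.825) and 0.10 ± 0.48 from iPSC (adjusted p = 0.889), Col3a1 one of 1.48 ± 0.85 from ESC (adjusted p = 0.209), and Col4a1 one of 0.95 ± 0.47 from ESC (adjusted p = 0.146) and 0.12 from iPSC (adjusted p = 0.752). Collagen processing genes gave 2 higher and 1 lower of 25 against ESC, and 3 and 3 against iPSC; the collagen chaperone Serpinh1 was higher in EpiSC than in either (1.42 and 0.86). Of the basement membrane partners, the laminin chain Lama1 was lower in EpiSC than in ESC (-2.34) and iPSC (-2.69), and Pxdn, which cross-links type IV collagen, was higher (1.59 and 1.37). Among fibroblast markers, 4 of 16 were higher in EpiSC than in ESC and 1 was higher than in iPSC, with 0 lower in either.

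The iPSC lines were set against MEF as well, a comparison that shares the MEF arrays with the one above. Of 31 collagen genes, 20 were lower and 2 higher in iPSC, with a background of 45.6% (21.7% lower, 23.9% higher). Col6a2 (-3.89), Col3a1 (-3.79), Col1a1 (-3.74) and Col1a2 (-3.33) showed the lowest values among the genes detected in every MEF array. Col4a5 was lower in iPSC than in MEF (-2.14 ± 0.37, adjusted p = 7.04e-05), as were Col4a2 (-1.88) and Col4a1 (-1.40, adjusted p = 0.0345). The 2 higher genes were Col9a2 (1.33, at least 1.79-fold, adjusted p = 0.0371) and Col25a1 (0.50, adjusted p = 0.0169), and Col25a1 was detected on 1 iPSC array and on neither MEF array. Between iPSC and ESC, 0 of 31 collagen genes and 0 of 15580 genes passed with limma, where at an unadjusted p under 0.05 there were 0 collagen genes and 1205 genes. The iPSC lines differed among themselves: Col2a1 gave 7.99, 7.05 and 6.18 in line 1 and 5.78, 6.03 and 5.55 in line 3, and Col8a2 gave 6.56, 5.67 and 5.13 against 4.64, 4.48 and 4.52. Without iPSC line 3, 1 collagen gene and 8.98% of all genes passed between iPSC and ESC.

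EpiSC9 gave 0 of 31 collagen genes against the 18 R1-129 lines with limma, where 1.83% of all genes passed and 1.5% were higher; 1 collagen gene, Col4a5, had an unadjusted p under 0.05. Col4a5 stood at 7.0, 7.32 and 7.43 in EpiSC9, below the lowest R1-129 line at 7.53 (-0.89 ± 0.33, adjusted p = 0.227). Of 6 endothelial markers, 4 were higher in EpiSC9, and their summed intensity was 957 to 1107 against 144 to 304 in the R1-129 lines; their part in the collagen values was not tested.

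Of 30 collagen genes tested over 65 cultures of 22 lines and sublines, 25 differed between lines, with a background of 91.4% of all genes, so that differing between lines is not particular to collagens. Col2a1, Col8a2 and Col22a1 varied widely between lines and little between cultures of a line: their standard deviations between the 18 lines were 1.01, 0.963 and 0.933, and between cultures 0.219, 0.214 and 0.277 (adjusted p = 7.14e-29, 2.13e-28 and 2.34e-24, limma F test). Col1a1 had 0.869 between lines and 0.381 between cultures, and Col3a1 0.874 and 0.552. Col18a1 varied least of the genes named in this paragraph, with 0.260 between lines and 0.137 between cultures. The next genes by p were Col16a1 (2.44e-21), Col4a1 (2.2e-19), Col6a3 (2.44e-19), Col6a1 (1.78e-18) and Col9a3 (6.38e-17), all adjusted.

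The line LMS1, from a late midstreak embryo, had the highest Col1a1 (10.64), Col1a2 (6.47), Col3a1 (9.11) and Col6a2 (8.86) of the 18 lines and the lowest Col2a1 (6.85), Col8a2 (5.65) and Col22a1 (6.05). LMS4, from the same stage, had the highest Col8a2 (9.68) and Col22a1 (10.09), and LB3 the highest Col2a1 (10.50). A line and its subline could stand far apart. Col2a1 stood at 9.19 in LMS2 and 7.22 in its subline, Col8a2 at 7.67 and 5.73 in CAV2, Col3a1 at 8.55 and 7.17 in CAV2, and Col4a1 at 11.12 and 9.91 in CAV2. The arrays of these lines lie in another array set than those of their sublines, and passage differs as well. Subline, array set and passage therefore cannot be told apart here.

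Several collagens followed the fibroblast markers across lines. The mean log2 level of the 16 detected markers ranged from 7.87 to 9.50 over the 18 lines and was 11.5 in MEF and 8.08 in ESC. Over 6 genes tested, Pearson's r and Spearman's rho with this mean were 0.883 and 0.847 for Col1a1, 0.827 and 0.864 for Col3a1, 0.778 and 0.725 for Col4a2, 0.683 and 0.738 for Col4a1, 0.614 and 0.674 for Col1a2, and -0.218 and -0.313 for Col18a1. The permutation p-values of r, adjusted over the 6 genes, were 3e-05, 3e-05, 0.00036, 0.00267, 0.00798 and 0.382 in that order, where 1e-05 is the smallest raw p that 100000 permutations can give; those of rho were 3e-05, 3e-05, 0.00127, 0.00122, 0.00338 and 0.206. Without LMS6 and LMS3, the lines farthest from the median of the markers, r was 0.848, 0.821, 0.840, 0.767, 0.57 and -0.291.

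Within the array sets that hold at least 6 lines, r for Col1a1 was 0.743 (8 lines), 0.748 (10) and 0.810 (11), and for Col3a1 0.817, 0.919 and 0.923. Col4a2 gave 0.885, 0.826 and 0.697, Col4a1 0.865, 0.734 and 0.569, Col1a2 0.672, 0.726 and 0.743, and Col18a1 -0.0428, 0.381 and 0.185. As a description without a test, other values of r over the 18 lines were 0.953 for Col16a1, 0.943 for Col6a1, 0.932 for Col6a3, 0.907 for Col6a2 and 0.896 for Col8a1, against -0.216 for Col2a1, -0.104 for Col8a2, -0.207 for Col22a1 and -0.149 for Col4a5. The median was 0.587 over the collagen genes and -0.0465 over all genes. The markers and the collagens come from the same arrays, and what sets both levels was not tested.

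**Figure D3:**
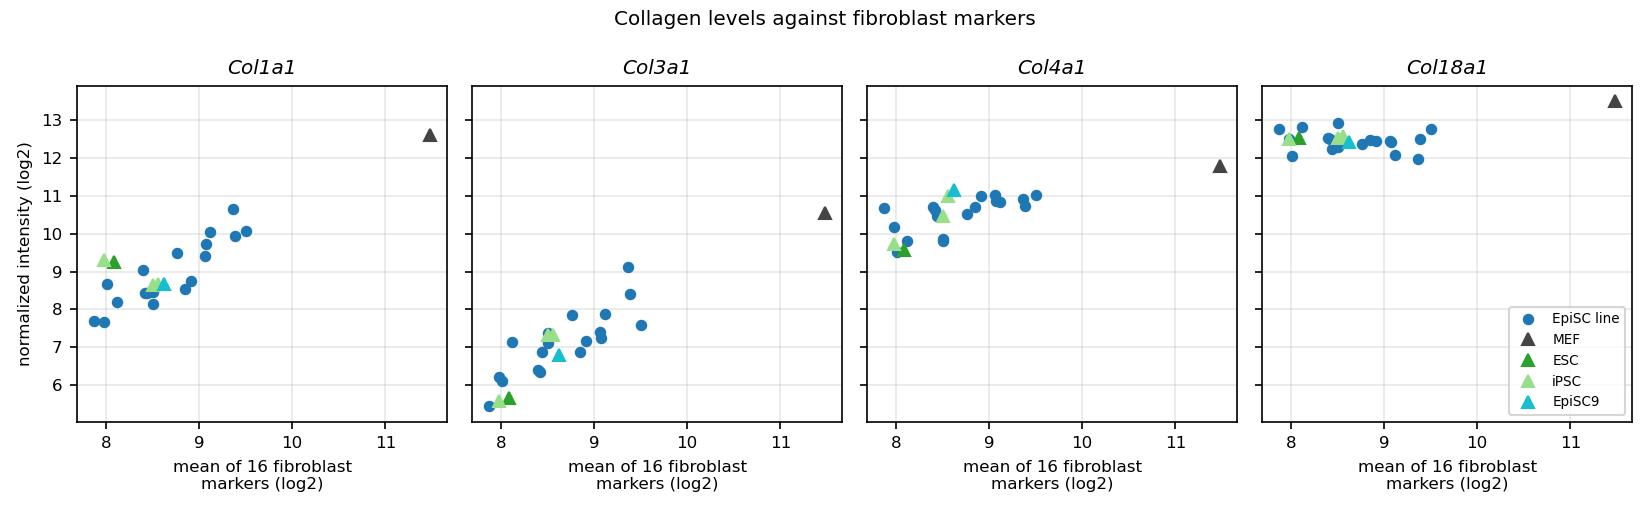
Log2 level of 4 collagen genes against the mean log2 level of 16 fibroblast markers; circles are the 18 EpiSC lines, and triangles are MEF, ESC, EpiSC9 and the 3 iPSC lines as line means. Among the EpiSC circles Col1a1 and Col3a1 are higher where the markers are higher (r = 0.883 and 0.827), and Col18a1 lies between 11.98 and 12.91.

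Lines were also compared by the stage of their embryo of origin. Over the 5 stages, 0 of 30 collagen genes passed (limma F test), with a background of 0.0135%, or 2 of 14850 genes, so the count says nothing particular to collagens. At an unadjusted p under 0.05 there were 5 of 30 (Col4a2, Col5a1, Col7a1, Col9a1 and Col25a1) and 1242 of all 14850 genes, and the adjusted p of these 5 lay between 0.436 and 0.597. Col4a5 averaged 8.42 over cavity lines, 8.20 over prestreak, 8.20 over late midstreak, 7.93 over early bud and 7.74 over late bud lines.

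Few collagens were detected in the amplified RNA of epiblasts. Col18a1, Col4a1, Col5a1 and Col9a3 were detected on all 17 epiblast arrays, and by the probes that stand for the genes 11 collagen genes were detected on at least 1 array and 29 on none. By any probe the counts were 12 and 28, as a second probe of Col23a1 was detected on 2 embryos. Col1a1, Col1a2, Col3a1, Col6a1, Col6a2, Col6a3, Col8a1 and Col8a2 were not detected in any embryo. In amplified EpiSC RNA the standing probe of Col6a2 was undetected as well, and Col1a1 and Col3a1 were detected on only part of the arrays. Absence of these transcripts from embryos is therefore not shown. Col18a1 ranged from 11.07 to 12.76 (median 11.67), Col4a1 from 9.42 to 11.54 (median 10.08), Col9a3, a chain of the type IX collagen found on cartilage fibrils, from 9.51 to 11.64 (median 10.75) and Col2a1 from 6.38 to 8.12 (median 7.01, detected on 15 of 17). The endoderm markers, which could mark remaining visceral endoderm, had a summed intensity of 909 to 2590 on epiblast arrays, where 7 of the 14 were detected on at least 1 array, 2 of them on all 17, and Afp, Apoa4, Sox7, Gata4, Cubn, Foxa2 and Thbd on none; their part in the collagen levels was not tested.

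Embryos of the streak and bud periods were each compared with the early ones, and both comparisons share the 4 early embryos. In the tests the embryos of a stage were averaged, so the units were stage means and not single embryos. Standard errors and p-values therefore do not measure the spread between embryos, and the no-bud stage mean is a single embryo. In streak against early epiblasts 0 of 22 collagen genes passed (limma), with a background of 0.330%, and 1 had an unadjusted p under 0.05 (Col4a5, 1.72 ± 0.67, adjusted p = 0.695). In bud against early epiblasts 4 of 22 were higher and 0 lower, with a background of 4.93%, 2.60% higher and 2.32% lower. The median difference was 0.233 over the collagen genes and 0.0733 over all genes. In simulated data with as many units as there are bud and early embryos, 84% of genes changed by 3 on the log2 scale were found. Of genes changed by 2, 58% were found, and of those changed by 1, 18%. The test itself had fewer units, the stage means, and shared a fit with streak embryos and amplified EpiSC. These shares therefore do not measure its power, and smaller differences could be missed.

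Col4a5 stood at 4.72, 4.62, 5.12 and 4.65 in the early epiblasts, where it was not detected. The streak embryos gave 6.53, 6.63, 6.30, 6.36, 6.06 and 7.13, detected on 4 of 6 arrays. The bud embryos gave 7.73, 8.40, 7.40, 8.52, 8.42, 8.37 and 8.16, all detected. The 3 periods did not overlap, and bud embryos lay at least 2.95-fold above early ones (3.27 ± 0.61, adjusted p = 0.0132). This call was lost in 4 other ways of processing the arrays, with differences of 1.57 to 2.63 and adjusted p of 0.0515 to 0.0971. The levels above are those of the probe that stands for the gene. A second probe of Col4a5 was detected on 0 of 17 epiblast arrays (mean 4.63) and 1 of 12 amplified EpiSC arrays. In unamplified EpiSC it was detected on all 65 arrays (mean 7.27). The stage difference of Col4a5 therefore rests on 1 probe.

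Col16a1 stood at 5.72, 4.48, 4.73 and 6.04 in early embryos (not detected), between 5.75 and 6.77 in streak embryos, and at 8.88, 8.11, 7.98, 8.12, 7.51, 7.82 and 7.82 in bud embryos. Bud and earlier embryos did not overlap, and the difference between bud and early was at least 3.32-fold (2.98 ± 0.52, adjusted p = 0.0097). Col5a1 stood at 7.95, 8.41, 7.81 and 8.14 in early embryos, between 8.01 and 9.50 in streak embryos and at 11.03, 9.67, 9.40, 9.99, 9.27, 9.79 and 9.46 in bud embryos, 3.98-fold above early (1.99 ± 0.46, adjusted p = 0.0325). Its streak embryos overlapped both other periods.

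Col22a1 stood at 5.21, 4.61, 4.74 and 4.49 in early embryos and at 8.63, 6.68, 6.15, 7.52, 6.83, 7.71 and 7.14 in bud embryos, where 4 of 7 arrays detected it (at least 2.08-fold, 2.79 ± 0.72, adjusted p = 0.0479). The first bud value of each gene is that of the no-bud embryo, whose array lies in the set of the amplified EpiSC. Among the 13 epiblasts that share an array set, without that embryo and the late streak embryos, 5 of the 11 collagen genes tested were higher in bud than early; 45.2% of all genes passed in that fit, 24.1% higher. With the arrays scaled to 1 median in place of quantiles, 0 collagens and 1.87% of all genes passed (Col16a1 2.07, adjusted p = 0.103; Col5a1 2.20, adjusted p = 0.0921). Col4a1 did not pass over all epiblasts (1.04 ± 0.45, adjusted p = 0.207).

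The partner of Col4a1 was detected in streak embryos alone. Col4a2 was detected on all 6 streak arrays, between 6.30 and 7.69, and on none of the 4 early and 7 bud arrays, whose values ranged from 5.17 to 7.10 and overlapped those of the streak embryos. Across the 17 epiblasts r between Col4a1 and Col4a2 was 0.272, where most values of Col4a2 lie near background. In amplified EpiSC, Col4a2 was detected on 10 of 12 arrays, and LMS3 stood at 9.83 before and 6.57 after amplification. The change with amplification did not pass over 4 line means. It passed in limma without LB2 (-2.03, adjusted p = 0.0096) and with cultures paired (-1.37, adjusted p = 0.0036). Absence of Col4a2 from early and bud embryos is therefore not shown. Bmp1, which removes the C-terminal propeptide of fibrillar procollagens, was the 1 of 22 collagen processing genes that was higher in bud epiblasts (3.16, at least 5.64-fold, adjusted p = 0.0097) and 0 were lower. Of 5 receptors, 6 degrading enzymes and 11 basement membrane partners 0 passed with limma; at an unadjusted p under 0.05 the counts were 0, 0 and 5.

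Fibroblast markers moved too: 4 of 15 were higher in bud than early epiblasts, Pdgfra (at least 5.08-fold), Fbln2 (at least 3.68-fold), Prrx1 (at least 2.89-fold) and Thy1 (2.10). Early mesoderm also expresses Pdgfra, so the list is not specific to fibroblasts here. The summed intensity of the 17 markers was 1070 to 1187 in early, 1522 to 2199 in streak and 2156 to 3607 in bud embryos, and Lum, Pdgfrb, S100a4, Postn, Twist2, Mgp, Snai2 and Tagln were detected on no epiblast array. Of the pluripotent markers, 2 were lower in bud epiblasts (Pou5f1, -3.13, and L1td1, -2.03). Of 9 endoderm markers, 1 was lower (Ttr, -1.47), and 0 of 4 endothelial markers passed with limma (0 at an unadjusted p under 0.05). The part of other cells of the dissected layer in the collagen values was not tested.

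**Figure D4:**
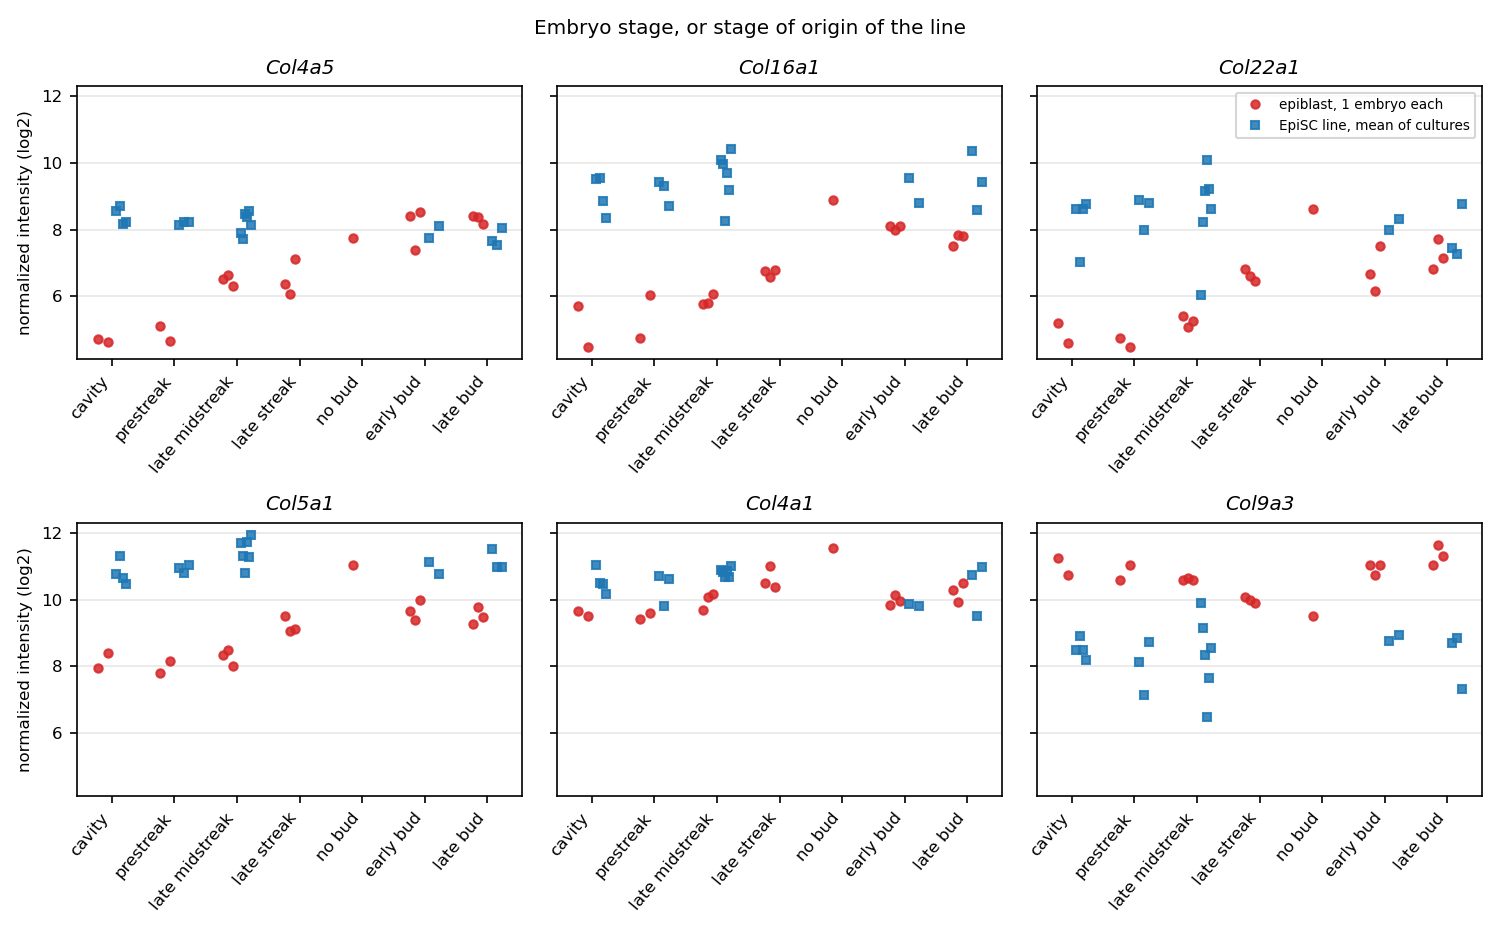
Log2 level of 6 collagen genes by embryo stage; red circles are single epiblasts and blue squares are EpiSC lines placed at the stage of their embryo of origin (mean of cultures). Circles for Col4a5, Col16a1, Col22a1 and Col5a1 are higher at bud stages than at cavity and prestreak stages, and the squares show no such step; epiblast RNA was amplified and EpiSC RNA was not.

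The stage difference of embryos was then set against that of lines, as the difference between bud and early embryos minus the difference between bud-derived and early-derived lines. Embryos entered this test as stage means too. They shared 1 fit with the more numerous unamplified line means, so the spread used is largely that between lines. Of 29 collagen genes tested, 5 passed, all with the larger value in embryos; the background was 21.9%, 11.0% in that direction. They were Col4a5 (3.78 ± 0.30, adjusted p = 1.29e-07), Col22a1 (3.21 ± 0.67, adjusted p = 0.00226), Col16a1 (2.74 ± 0.55, adjusted p = 0.00166), Col5a1 (1.78 ± 0.41, adjusted p = 0.00469) and Col11a2 (0.71 ± 0.20, adjusted p = 0.019). In lines alone, the difference was -0.51 ± 0.16 for Col4a5, -0.43 ± 0.36 for Col22a1, 0.24 ± 0.30 for Col16a1 and 0.22 ± 0.22 for Col5a1, and 0 collagen genes passed with limma (1 at an unadjusted p under 0.05), where the background was 0.00679%. In embryos alone within this fit, 5 collagen genes were called, against a background of 26.8%. The background of bud against early embryos was 4.93% in the fit of amplified RNA alone. Col11a2, a minor chain of cartilage fibrils, was, by the probe that stands for it, detected on 0 of 17 epiblast arrays and 5 of 65 EpiSC arrays, so its difference lies at background level. Each difference is taken within amplified or within unamplified RNA. For Col4a5 it is that of the probe that stands for the gene, as its second probe was detected on no epiblast array.

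Amplified EpiSC RNA allowed lines and embryos to be compared after the same preparation. Lines entered as line means and embryos as stage means. Of 22 collagen genes, 16 were higher in amplified EpiSC than in epiblasts and 2 lower, with a background of 22.5% (14.1% higher, 8.43% lower). The median difference was 1.64 over the collagen genes and -0.0045 over all genes. By class, 5 of 5 fibrillar genes, 3 of 3 basement membrane genes and 8 of 14 others were higher, and both lower genes were of the last class. Only 11 collagen genes were detected on any epiblast array. The rest of the 22, among them Col1a1, Col1a2, Col3a1, Col6a1, Col6a3, Col8a1 and Col8a2, were tested only because amplified EpiSC detected them. A call of higher was favoured for these in advance, so the counts do not show a shift of the classes. The same holds for genes of the lists below that no epiblast array detected.

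Both type VI genes tested differed widely. Col6a3 stood between 9.27 and 10.18 in the 4 amplified lines and between 4.42 and 5.02 in the 17 epiblasts, where it was not detected (at least 8.71-fold, 5.13 ± 0.26, adjusted p = 3.03e-07). Col6a1 stood at 9.47, 9.41, 8.41 and 9.56 in amplified CAV2, PS5, LMS3 and LB2 and between 4.31 and 4.67 in epiblasts, again not detected (at least 6.17-fold, 4.72 ± 0.29, adjusted p = 1.01e-06). Col8a1 stood between 7.82 and 9.13 against 4.30 to 5.04 (at least 3.86-fold, 3.93 ± 0.29, adjusted p = 4.58e-06). For all 3 the groups were far apart.

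Col22a1 (3.30 ± 0.50, adjusted p = 0.000755), Col5a1 (2.60 ± 0.32, adjusted p = 0.00019), Col16a1 (2.44, adjusted p = 0.000654), Col8a2 (2.40, at least 1.44-fold, adjusted p = 0.000358), Col4a5 (1.88, adjusted p = 0.00838) and Col2a1 (1.71, adjusted p = 0.011) were also higher in amplified EpiSC. The second probe of Col4a5 was detected on 1 of the 12 amplified EpiSC arrays and on no epiblast array. Col1a2 was detected on all 12 amplified EpiSC arrays, between 6.48 and 7.26 as line means, and on no epiblast array, between 4.81 and 6.02 (at least 1.21-fold, 1.58, adjusted p = 0.00131). Col1a1 (adjusted p = 0.00993) and Col3a1 (adjusted p = 0.0024) were higher too, detected on 8 and 7 of the 12 amplified EpiSC arrays and on no epiblast array; their mean level in EpiSC did not exceed the mean of the lowest detected levels of the epiblast arrays, so no fold is given. Col4a2 was higher by 2.25 (adjusted p = 0.00728) and Col4a1 by 0.97 (adjusted p = 0.0442), a call that was lost under 6 alternatives.

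Both type IX genes that were detected in embryos were lower in the lines. Col9a3 stood between 8.56 and 9.66 in amplified EpiSC and between 9.51 and 11.64 in epiblasts (-1.45 ± 0.36, adjusted p = 0.0137), and the unamplified EpiSC lines ranged from 6.47 to 9.89. Col9a2 stood between 5.77 and 6.76 against 6.87 to 8.06 (-1.10 ± 0.31, adjusted p = 0.024), groups that did not overlap. When epiblasts were restricted to the 4 that share an array set with amplified EpiSC, 5 of 22 collagen genes passed (Col5a1, Col6a1, Col6a3, Col8a1 and Col8a2), all higher in EpiSC, where 9.23% of all genes passed, 5.31% higher.

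In the same comparison, 11 of 15 fibroblast markers were higher in amplified EpiSC, such as Acta2 (8.47), Fbln2 (4.76) and Dcn (3.78), and their summed intensity was 16205 to 27458 in amplified EpiSC and 1070 to 3607 in epiblasts. Of the collagen processing genes, 10 of 22 were higher (Lox, at least 3.64-fold, Adamts2, at least 3.28-fold, Loxl1, 3.35, Bmp1, 2.84) and 2 lower. Of the degrading enzymes, 5 of 6 were higher (Mmp13, at least 3.03-fold, Ctsk, at least 3.25-fold), of the receptors 1 of 5 (Itga11, at least 2.38-fold), and of the basement membrane partners 3 of 11 (Lama1, 1.97, Lamb2, 1.85, Nid1, 0.97). The part of RNA from the fibroblast layer under EpiSC cultures in these differences was not tested.

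Amplification itself moved single probes, so amplified and unamplified levels are compared here on their own. In the same 12 cultures, 5 of 25 collagen genes were higher after amplification and 3 lower, with a background of 45.5% (25.6% higher, 19.9% lower) and a median over all genes of 0.149. Col1a1 stood at 9.49, 8.44, 7.70 and 8.68 in CAV2, PS5, LMS3 and LB2 before and at 6.52, 6.12, 4.64 and 6.06 after amplification (-2.84 ± 0.31, adjusted p = 0.00045). The probes of Col6a2 disagreed: the one that stands for the gene was lower and undetected on all 12 arrays (at least 2.04-fold, -2.03 ± 0.33, adjusted p = 0.00209), while a second one was higher (0.97 ± 0.33, adjusted p = 0.0381) and detected on 4 of 12. Col12a1 was lower (adjusted p = 0.0252). Col1a2 was higher in each line after amplification, at 7.26, 6.48, 7.04 and 6.68 against 5.92, 5.05, 4.87 and 5.28 (1.57 ± 0.27, adjusted p = 0.00279), and so were Col7a1 (1.58 ± 0.30, adjusted p = 0.00399) and Col20a1 (1.14). Col8a1 (0.88) and Col5a1 (0.58) were higher too. Col8a1 turned to -0.33 in the values processed by the authors, where another probe can stand for the gene. A second probe of Col8a1 gave -0.62 (adjusted p = 0.142). With cultures paired in place of line means, 8 were higher and 10 lower, where 72.7% of all genes passed (41.4% higher, 31.3% lower). With median scaling 1 was higher and 3 lower, where 36.9% of all genes passed. Without CAV2 4 collagens passed (23.3% of all genes), and without LMS3 also 4 (31.8%). By any of its probes, after amplification Col1a1 was detected on 8, Col3a1 on 7 and Col6a2 on 4 of the 12 arrays, which bears on reading these genes as undetected in epiblasts.

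**Figure D5:**
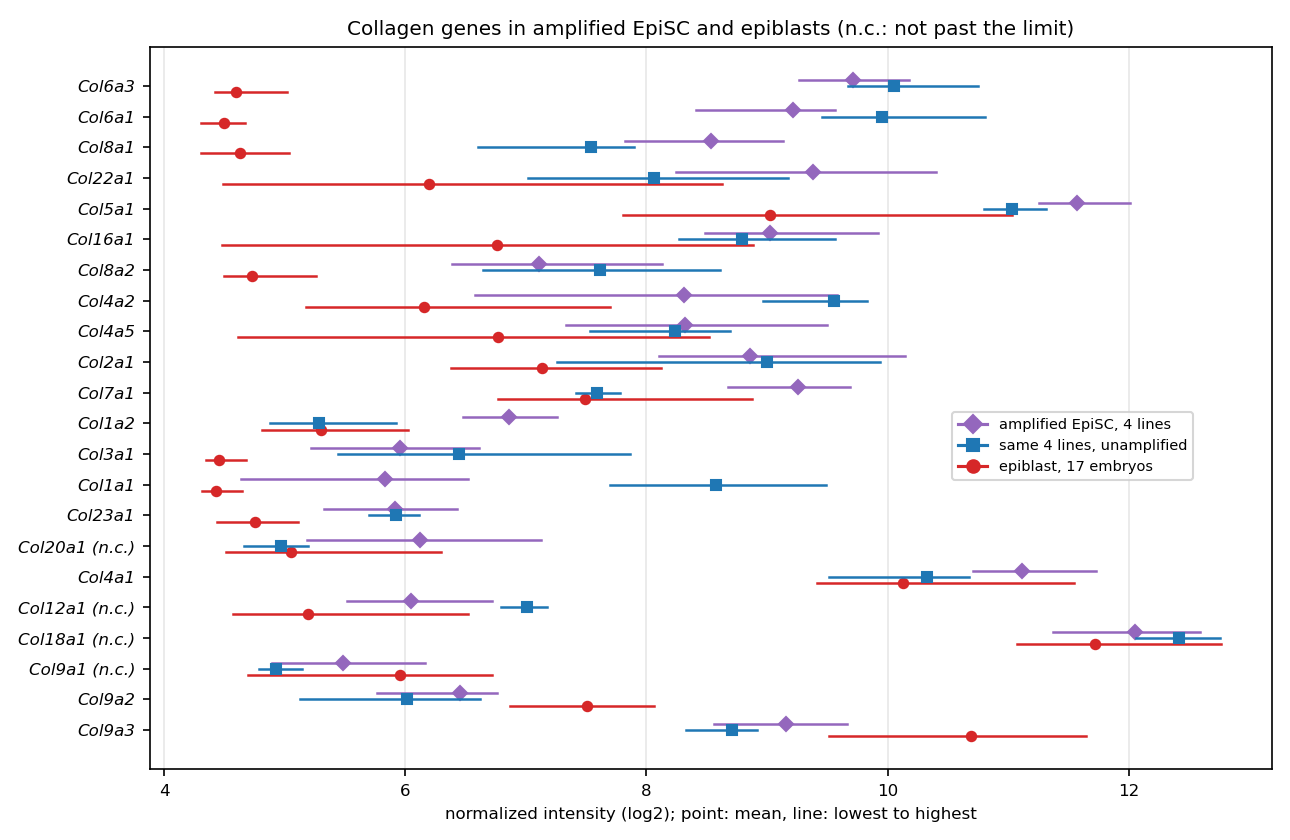
Mean (symbol) and lowest to highest value (line) of collagen genes on a log2 intensity scale in 4 amplified EpiSC lines, the same 4 lines without amplification, and 17 epiblasts, ordered by the difference between amplified EpiSC and epiblasts. The epiblast symbols lie left of the amplified EpiSC symbols for 16 called genes and right of them for Col9a2 and Col9a3; n.c. marks genes that did not pass.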

How the data were processed

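Bead-array intensity values per probe and a detection p-value per probe and array were deposited by the authors for 112 samples, and per the submitters' processing notes BeadStudio was used to make them. A second deposited table holds log2 values processed by the authors with a method not given in the sources used here, and it served as an alternative; its columns of the line LB2 are permuted among themselves against the intensities. Background correction (limma 3.58.1 in R 4.3.3, normexp from detection p, offset 16), quantile normalization and log2 were applied here to all arrays together. Probes took current names by symbol (27400) or synonym (8341), and 9540 kept the file's name. The probe with the highest mean stood for its gene, and a gene was tested where it was detected on at least 2 arrays of the fit. In the table processed by the authors the standing probe was chosen anew, so it can differ from the one used elsewhere.

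Cultures and sublines were averaged per line, and limma was fitted to all genes with a mean-dependent spread and Benjamini-Hochberg adjustment (limit 0.05); MEF, ESC and EpiSC9 are 1 unit each. Labels do not say that all samples of a group are independent, so p-values may measure technical spread. Where no array of the lower group detected a gene, its fold is a bound against the lowest detected level. Epiblasts were averaged per stage, so each unit in their tests is a stage mean, and each period is the mean of its stage means. Their standard errors and p-values do not measure the spread between single embryos. The number of arrays limits the precision. Steps were tested on simulated data.

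Members and lists (collagen processing, receptors, degrading enzymes, basement membrane partners, and markers of fibroblasts, endoderm, endothelium and pluripotent cells) were chosen with earlier results of these data known. Named genes are 13 key collagens, up to 8 called members per comparison with the largest difference whose higher group had it on all arrays, and up to 4 genes per list; others were chosen after their values were seen. Unless another probe is named, detection is that of the standing probe. Alternatives covered normalization, filters, probes, array sets, sublines and left-out samples. The labels of 2 bud epiblasts describe cultured cells in 1 field, and they were grouped by title. EpiSC9_T entered no test.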

Additional observations from a re-analysis of the deposited data

Results flagged for a closer look

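Of 88 checks of a group of 4 to 10 samples for 1 value far from the rest, 7 passed; chance flags about 1 in 20 groups. Of these, 4 concern the no-bud embryo among the 7 bud epiblasts, whose array lies in another array set than the other 6. It stood at 11.03 for Col5a1 (the others 9.27 to 9.99), at 11.54 for Col4a1 (9.82 to 10.51), at 8.88 for Col7a1 (6.98 to 7.61) and at 9.51 for Col9a3 (10.75 to 11.64). Among the 4 lines from cavity embryos, CAV2 stood at 7.02 for Col22a1 (8.61 to 8.77) and CAV1 at 8.34 for Col12a1 (6.93 to 7.14). Among the amplified lines, LMS3 stood at 8.41 for Col6a1 (9.41 to 9.56). The difference between bud and early samples differed between embryos and lines, by the interaction test, by 3.78 for Col4a5, 3.21 for Col22a1, 2.74 for Col16a1, 1.78 for Col5a1 and 0.71 for Col11a2 on the log2 scale. The causes were not tested.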

How the results depend on the processing

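Of 2902 recomputed values of single-gene results, 2832 kept their direction and side of the threshold, 49 lost the call, 17 gained it and 4 reversed. The reversed ones were Col5a2 without MEF replicate 1 (0.39 for EpiSC minus MEF and 0.045 for iPSC minus MEF; without replicate 2, -2.75 and -3.09), Col8a1 in amplified minus unamplified EpiSC with the authors' values (-0.33) and Col6a1 there with every probe on its own (0.88). The number of collagens called ranged over the alternatives from 19 to 28 for EpiSC minus MEF, 4 to 7 for EpiSC minus ESC, 5 to 7 for EpiSC minus iPSC, 17 to 27 for iPSC minus MEF and 22 to 27 between lines. It was 1 between iPSC and ESC without iPSC line 3 (range 0 to 1 on leaving out samples) and 1 for EpiSC9 with every probe on its own. For bud minus early epiblasts it was 2 with the authors' values, 2 with no background correction, 2 with amplified arrays normalized on their own and 0 with median scaling. It was 5 for amplified EpiSC minus epiblast within their array set. For amplified minus unamplified EpiSC it was 4 with median scaling (1 higher, 3 lower) and 8 with the authors' values (4 higher, 4 lower), 4 to 9 on leaving out a line, and 18 with cultures paired as a replicate block. Within array sets the correlation with fibroblast markers was 0.672 for Col1a2 (set 1), 0.569 for Col4a1 (set 4), and 0.381 and 0.185 for Col18a1 (sets 3 and 4). Median scaling moved the median of all genes for amplified minus unamplified EpiSC from 0.15 to -0.26 and for streak minus early from 0.03 to 0.27. Replicate numbers did not pair the cultures (mean correlation 0.0279; 26 of 65 arrays correlated best with their own number), and with the number as a replicate block 24 genes were called for EpiSC minus MEF, 5 against ESC, 6 against iPSC, 21 for iPSC minus MEF and 26 between lines. The causes were not tested. Alternatives on array sets and on detection on 3 arrays were chosen after seeing the data. In simulated data, 40% of genes changed by 1 on the log2 scale were found for EpiSC minus MEF and 84% for EpiSC minus iPSC.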

Other observations

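EpiSC9_T, the single array of EpiSC9 RNA from another laboratory, detected 15 collagen genes, against 21 to 24 on the 3 other EpiSC9 arrays. Col1a1 stood at 6.18 in it and between 8.35 and 8.96 in EpiSC9. Col3a1 stood at 4.70 and Col1a2 at 4.5, both undetected. Col5a1 stood at 8.28 and Col2a1 at 6.40, both below every R1-129 line, while Col9a3 stood at 9.18 and Col23a1 at 6.29, inside the range of the lines. The mean of the fibroblast markers was 7.21 in EpiSC9_T and 8.63 in EpiSC9. With 1 array there is no test, and what sets these values was not tested.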
